A study of Mus musculus with 6 samples.

Results

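The amino acid transporter families of the solute carrier (Slc) series were followed in macrophages from the mouse peritoneum, phagocytes that live in the abdominal cavity, kept in culture. Members were all protein-coding genes whose symbols begin with Slc1a, Slc3a, Slc6a, Slc7a, Slc36a, Slc38a or Slc43a, without Slc7a2 and Slc7a11. That gave 62 of the 54532 genes in the count table. Messenger RNA had been sequenced from 3 libraries labelled as negative control and 3 labelled as Rfx1 overexpression, all from cells kept in serum-containing medium. Rfx1 encodes a DNA-binding protein of the RFX family. The labels name no strain, age, sex, vector or promoter, and do not tell whether each library had its own animal or culture, so the p-values cover the spread among these libraries alone, which may be technical. The question put to the data was which carrier transcripts are higher or lower under that label. One of the 62, Slc7a6os, carries a transporter symbol only because it is read from the strand opposite Slc7a6, and is not a transporter.

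Amino acids are charged or polar and cross membranes only through carriers. Some carriers accumulate their substrates by coupling to sodium, chloride or proton gradients, and others exchange one amino acid for another. The Slc7 light chains reach the cell surface bound to a heavy chain, Slc3a1 or Slc3a2. Macrophages are known to depend on carried arginine, glutamine, cystine and leucine for nitric oxide, glutathione and growth signalling, and lysosomal carriers return amino acids from digested material to the cytosol.

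Libraries held 16461277 to 18795575 counts, and 13454 genes passed the filter on low counts. Expression is given as CPM, counts scaled to a common library size after correction by the trimmed mean of M-values (TMM). Rfx1 was most abundant in the library labelled control 1 (57.6, 11.0 and 14.8 CPM in controls 1, 2 and 3 and 40.8, 36.4 and 23.2 CPM in overexpression 1, 2 and 3), a value against that label. Over the 3 libraries of each label Rfx1 overlapped, and its log2 difference of 0.27 ± 0.58 did not pass (SE, adjusted p = 0.80), so "with overexpression" here names the label and not a measured rise of Rfx1. Overexpression 1 and 2 also stood apart in Lyz2, the lysozyme gene typical of macrophages, with 44.7 and 40.9 CPM against 15670, 38700 and 28350 CPM in the controls and 29280 CPM in overexpression 3. The labels give no genotype, so whether these 2 libraries shared the genotype of the others cannot be told. All 8 macrophage markers examined were detected in every library and 2, Adgre1 and Itgam, rose. Without Lyz2 the other 7 summed to 3144 to 3857 CPM in the controls and 4137 to 4720 CPM with overexpression. Of 10 tested mesothelial markers, from the cells that line the cavity, 7 fell. All 14 listed mesothelial markers, tested or not, summed to 33.6 to 205 CPM in the controls and 4.24 to 11.0 CPM with overexpression. Of 9 tested fibroblast markers 4 fell. All 10 listed fibroblast markers summed to 1684, 2903 and 3720 CPM in controls and 978, 1362 and 3615 CPM in overexpression 1, 2 and 3. Overexpression 3 thus lay within the range of the controls, and overexpression 1 and 2 below it. The 1 tested eosinophil marker also fell, and 2 of 3 tested neutrophil markers and 1 of 3 tested dendritic cell markers rose. Among all tested genes 6.90% rose and 5.97% fell. In bulk RNA, fewer cells of a type and less RNA per cell cannot be told apart.

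Of the 62 members, 32 passed the filter on low counts and were tested, 24 of them by reaching it in both groups, 5 through the overexpression libraries alone and 3 through the controls alone. With overexpression, 3 of the 32 rose (Slc1a2, Slc6a19 and Slc43a3), 3 fell (Slc6a6, Slc38a2 and Slc38a4), and 26 did not pass an adjusted p of 0.05 in edgeR's quasi-likelihood test. Of the 6, Slc1a2 and Slc6a19 had passed the filter through the overexpression libraries alone and Slc38a4 through the controls alone, each through the group in which it was higher. Each direction thus held 9.38% of the tested members, against 6.90% higher and 5.97% lower among all tested genes. In each direction the families held a share of calls near the background. The median log2 change was -0.08 over the tested members and -0.01 over all tested genes. Counting separation alone, the 3 overexpression libraries lay above all controls in 9 members (28.1%, against 16.3% of all tested genes) and below them in 5 (15.6%, against 17.1%).

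The number of calls depended on the test and on the libraries. DESeq2 called 7 of the 32 higher and 3 lower (10.1% and 8.97% of all genes), and limma-voom 9 and 11 (18.2% and 19.8%). Limma-voom was run with quality weights, so each library also counted by its estimated quality. With low counts kept, 6 and 4 were called (6.14% and 6.15%). Leaving out control 1 with overexpression 3, chosen after seeing the data, gave 6 and 8 of 33 (14% and 14.8%). The 6 calls of the edgeR test were all shared by DESeq2 and limma-voom.

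**Figure D1:**
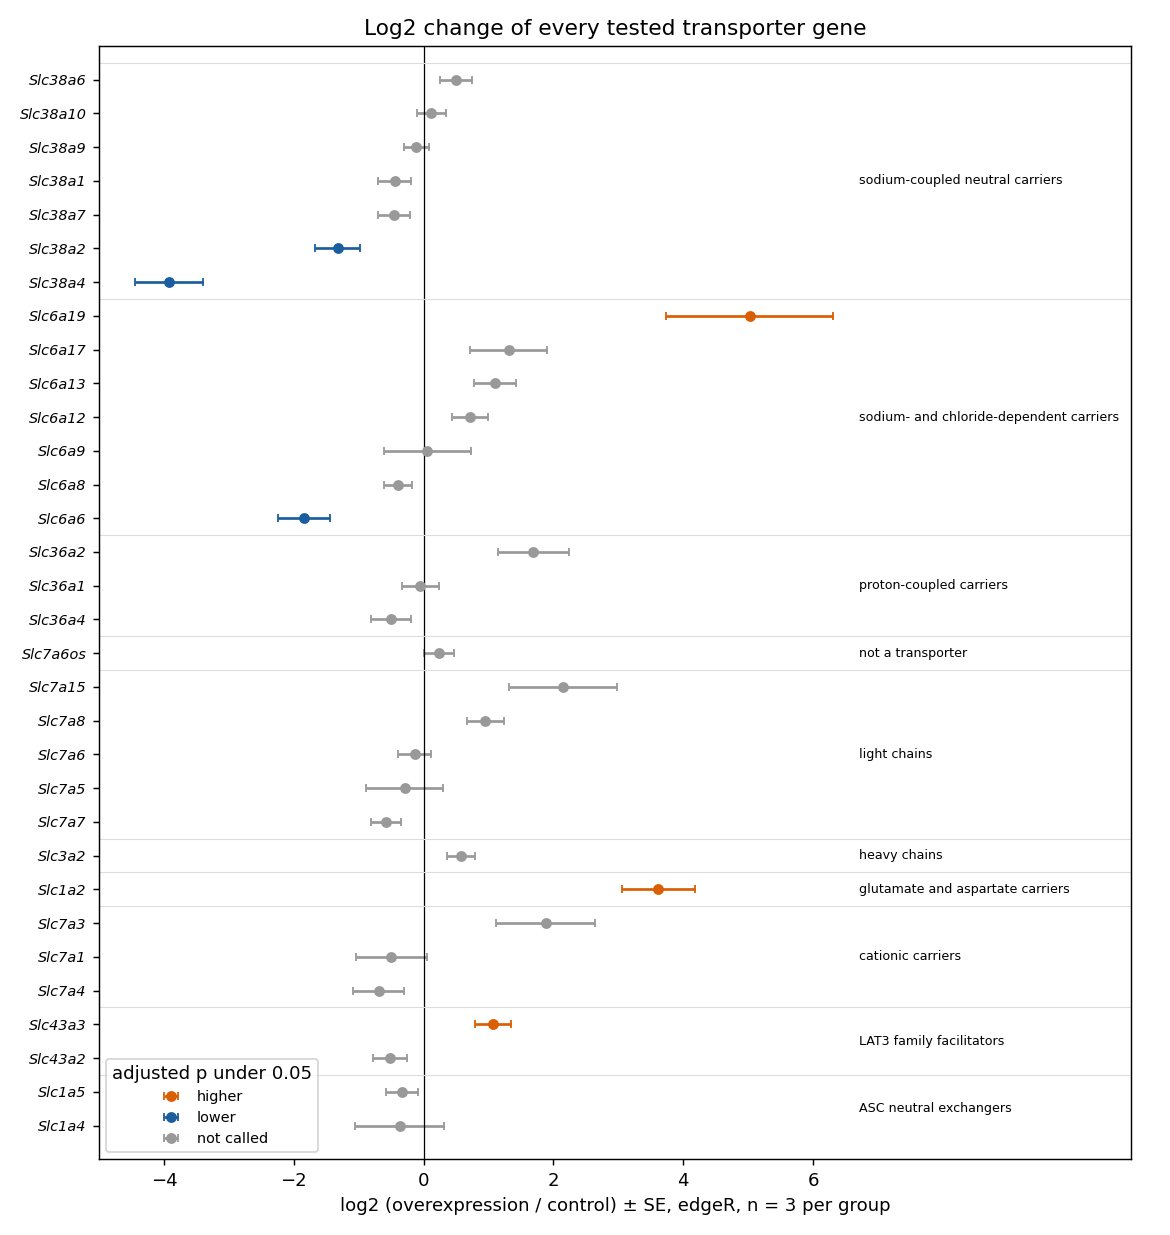
Log2 change (overexpression over control, horizontal axis, with bars of 1 standard error from edgeR, n = 3 per group) for the 32 tested members, grouped by transport role. Orange and blue points mark the 3 members called higher and the 3 called lower, and the other 26 are grey.

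Levels of different genes can be set side by side only per length, so CPM were divided by the kilobases of merged exon. On that scale 11 members reached a mean of 10 CPM per kilobase over the 6 libraries. The heavy chain gene Slc3a2 stood first at 91.1 CPM per kilobase, followed by Slc6a6 at 51.9 and the creatine carrier gene Slc6a8 at 34.6. Slc3a2 held 26.3% and Slc6a6 15.0% of the summed level of all members. In controls the mean of Slc3a2, 73.0 ± 6.55 CPM per kilobase, lay within the spread of Slc6a6, 81.3 ± 17.5 (SD, n = 3), while with overexpression they were 109 ± 13.2 and 22.6 ± 13.7. The share of Slc6a6 in the summed level was 23.0%, 18.6% and 24.7% in controls 1, 2 and 3 and 4.27%, 5.34% and 10.4% in overexpression 1, 2 and 3. The next genes were Slc6a12 at 23.6, Slc38a10 at 17.7, Slc38a2 at 15.1, Slc36a4 at 13.7, Slc36a1 at 12.8, Slc1a5 at 12.3, Slc38a7 at 11.2 and Slc43a2 at 11.1 CPM per kilobase. That order is over both groups and differs within them. In controls Slc38a2, at 21.6 ± 0.934 CPM per kilobase, stood above Slc6a12 (17.9 ± 5.25) and Slc38a10 (17.0 ± 2.16), with Slc6a12 within its spread of Slc38a2. With overexpression Slc38a2 was at 8.62 ± 4.65, and Slc7a8, at 11.2 ± 3.14, had a higher mean than Slc38a7 (9.40 ± 2.71) and Slc43a2 (9.12 ± 1.18), within its own spread of both.

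**Figure D2:**
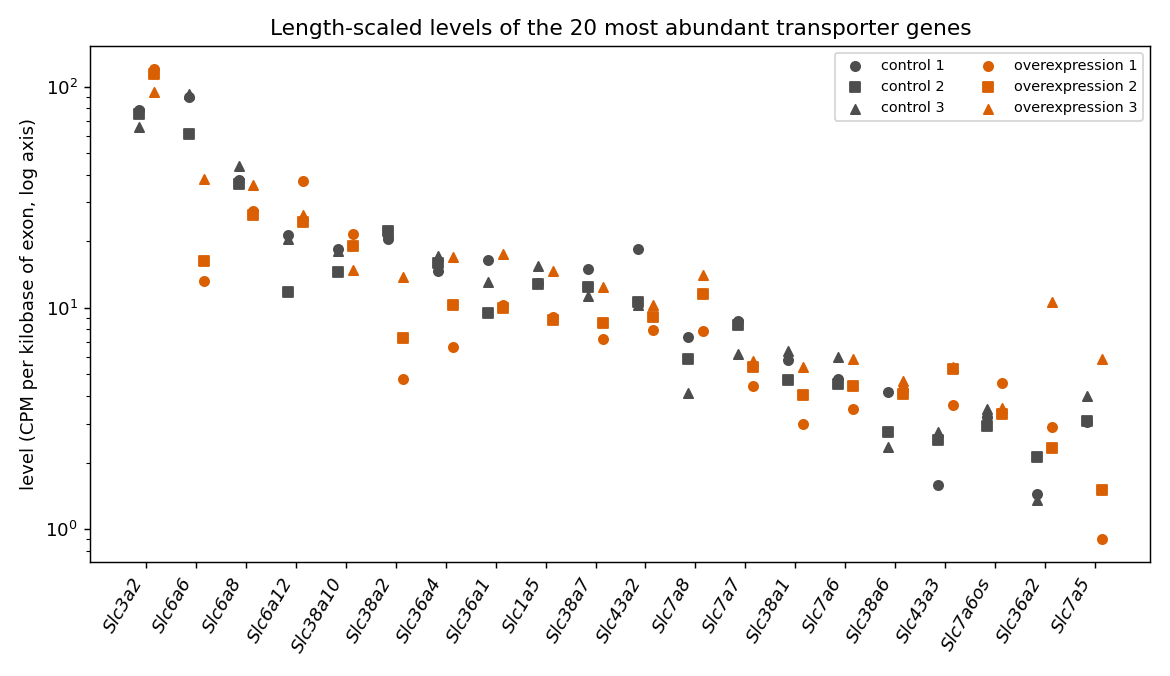
Levels of the 20 most abundant members in CPM per kilobase of exon (vertical log axis), with grey symbols for controls and orange for overexpression libraries, and circle, square and triangle for libraries 1, 2 and 3. Slc3a2 leads in all 3 overexpression libraries, and Slc6a6 leads in controls 1 and 3.

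Among the sodium- and chloride-dependent Slc6 carriers, which include those of taurine, creatine, betaine, glycine and the neurotransmitters, 7 of 21 were tested, 1 rose and 1 fell. Slc6a6 (ENSMUSG00000030096, chromosome 6, positions 91684053 to 91759066 of mm10, + strand), the taurine carrier gene, had 759, 517 and 786 CPM in controls 1, 2 and 3 and 112, 138 and 324 CPM in overexpression 1, 2 and 3. The groups did not overlap, and overexpression 3 lay nearest the controls. Slc6a6 fell by 1.84 ± 0.40 on the log2 scale (SE, adjusted p = 0.016), and the call ended without overexpression 1 or overexpression 2 (adjusted p = 0.051 and 0.098).

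Slc6a19 (ENSMUSG00000021565, chromosome 13, positions 73679745 to 73704865, - strand) encodes the carrier that takes up neutral amino acids in gut and kidney. Controls 1, 2 and 3 held 0.945, 0.160 and 0 CPM of it, against 16.5, 20.6 and 0.767 CPM in overexpression 1, 2 and 3. Overexpression 3 lay below control 1, so the groups overlapped and the high values were those of overexpression 1 and 2, the libraries low in Lyz2. The log2 change was 5.02 ± 1.29 (SE, adjusted p = 0.038). Leaving out control 2 or control 3 ended the call (adjusted p = 0.12 and 0.063), as did leaving out overexpression 1 or 2 (0.13 and 0.10).

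The betaine and GABA carrier gene Slc6a12 and its neighbour on chromosome 6, the GABA carrier gene Slc6a13, lay higher in every overexpression library than in any control. Slc6a12 had 65.1, 36.2 and 62.4 CPM in controls and 114, 74.7 and 79.8 CPM with overexpression, a log2 difference of 0.71 ± 0.28 that did not pass (adjusted p = 0.13). Slc6a13 had 2.88, 2.50 and 2.40 CPM against 6.43, 5.67 and 4.66 CPM, a difference of 1.10 ± 0.32 that missed the threshold (adjusted p = 0.052) and passed with DESeq2 (0.017) and limma-voom (0.0050). Slc6a8, the creatine carrier gene, had lower values in every overexpression library than in any control, with almost no gap between the groups. Its values were 197, 189 and 228 CPM in controls and 143, 137 and 188 CPM with overexpression (a log2 difference of -0.39 ± 0.21, adjusted p = 0.27). The glycine carrier gene Slc6a9 had 2.83 ± 0.700 and 2.92 ± 2.73 CPM (SD, n = 3), and Slc6a17, a vesicular carrier of neurons, had 0.448 ± 0.167 and 1.12 ± 0.456 CPM. Neither passed in the edgeR test (adjusted p = 0.97 and 0.18). Limma-voom called Slc6a17 higher and Slc6a8 lower (adjusted p = 0.049 and 0.017).

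The sodium-coupled neutral carriers of the Slc38 family move glutamine, alanine and other small neutral amino acids. Of 11, 7 were tested and 2 fell. The edgeR test called 0 higher, also at an unadjusted p under 0.05, and DESeq2 called 0 higher. Limma-voom called Slc38a6 higher, and it called Slc38a1 and Slc38a7 lower besides Slc38a2 and Slc38a4 (adjusted p = 0.039 for Slc38a1 and Slc38a7). The 2 genes that fell in the edgeR test, Slc38a2 and Slc38a4, lie with Slc38a1 in a cluster on chromosome 15. Slc38a2 (ENSMUSG00000022462, positions 96687392 to 96699730, - strand), the system A carrier gene known to be induced by amino acid shortage, had 182, 197 and 195 CPM in the controls. With overexpression it had 42.1, 64.6 and 122 CPM. All overexpression libraries lay below all controls, with overexpression 3 the highest of them. Slc38a2 fell by 1.33 ± 0.35 on the log2 scale (SE, adjusted p = 0.033), and leaving out any library except overexpression 3 ended the call (adjusted p = 0.051, 0.11 and 0.082 without control 1, 2 or 3, and 0.064 and 0.16 without overexpression 1 or 2).

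Slc38a4 (ENSMUSG00000022464, positions 96994820 to 97055956, - strand), an imprinted system A carrier gene best known from liver and placenta, had 3.40, 8.52 and 5.999 CPM in controls and 0.411, 0.227 and 0.531 CPM with overexpression. The groups were far apart, and this was the deepest fall among the tested members, by 3.92 ± 0.53 on the log2 scale (SE, adjusted p = 0.0020), a call that held when any 1 library was left out. The mesothelial marker sum was likewise lowest in control 1, at 33.6, 151 and 205 CPM in controls 1, 2 and 3. The part of those cells in the Slc38a4 values was not tested. Slc38a1, whose gene lies on the other side of Slc38a2, had 100, 81.4 and 110 CPM in the control libraries against 51.7, 69.5 and 93.4 CPM in the overexpression libraries (log2 difference -0.44 ± 0.25, adjusted p = 0.29).

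RefSeq promoter windows, from 250 bases before to 50 after a start, were found for 45 of the 62 members, 66 windows in all. Among the called members Slc1a2, Slc38a2, Slc38a4 and Slc6a19 had one. They were searched on both strands for GTTGCC, one arm of the X-box that RFX factors are known to bind, and for TGATGNAA, the core of the C/EBP-ATF element of the amino acid response. GTTGCC was in 7 of the 66 windows (10.6%, against 12.5% of all 32851 windows), and TGATGNAA in 4 (6.06%, against 3.97%). By gene, 6 and 3 of the 45 members held them. Overlapping windows of Slc7a9 share a GTTGCC site, and those of Slc7a7 share a TGATGNAA site. Slc7a7 also had a match next to a start. Among the windows of called members, that of Slc38a2 alone held GTTGCC and none held TGATGNAA. Those of Slc38a2 (build GRCm38.p6, chr15:96699679-96699978, - strand) and of the farthest upstream start of its neighbour Slc38a4 (chr15:97055907-97056206, - strand) are shown because both genes fell. The window of Slc1a4 (chr11:20332664-20332963, - strand) is shown for its TGATGNAA match at the start site. Capitals mark the matches, which on the printed strand read as the reverse complements.
Slc38a2: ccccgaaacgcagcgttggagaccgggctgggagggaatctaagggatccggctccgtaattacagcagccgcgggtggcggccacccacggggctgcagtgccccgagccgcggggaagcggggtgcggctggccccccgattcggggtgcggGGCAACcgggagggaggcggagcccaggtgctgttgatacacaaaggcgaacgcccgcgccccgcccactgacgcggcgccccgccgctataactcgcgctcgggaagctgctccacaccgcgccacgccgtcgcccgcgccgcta
Slc38a4: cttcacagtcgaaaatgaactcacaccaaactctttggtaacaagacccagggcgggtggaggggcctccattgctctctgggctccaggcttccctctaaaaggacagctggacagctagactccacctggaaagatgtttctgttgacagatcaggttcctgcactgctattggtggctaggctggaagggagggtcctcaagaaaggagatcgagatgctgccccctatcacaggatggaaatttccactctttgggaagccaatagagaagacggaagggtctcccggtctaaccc
Slc1a4: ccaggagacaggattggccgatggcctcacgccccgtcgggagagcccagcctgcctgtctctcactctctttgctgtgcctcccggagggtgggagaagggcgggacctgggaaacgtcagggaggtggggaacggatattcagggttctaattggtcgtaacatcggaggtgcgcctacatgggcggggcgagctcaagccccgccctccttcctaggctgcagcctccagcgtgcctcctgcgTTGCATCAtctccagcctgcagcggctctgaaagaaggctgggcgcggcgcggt
A match is a run of letters and was not tested for binding.

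Carriers of the lysosome membrane are also found in the Slc38 family. Slc38a9, known to signal arginine to mTORC1, had 23.5, 25.9 and 25.9 CPM in controls and 22.0, 23.1 and 24.4 CPM with overexpression, the smallest standard error of all tested members (log2 difference -0.11 ± 0.19, adjusted p = 0.74). Slc38a7, which exports glutamine and asparagine from lysosomes, had 62.2, 51.6 and 47.0 CPM against 30.0, 35.4 and 51.5 CPM (-0.46 ± 0.25, adjusted p = 0.26). The groups overlapped for both genes. Of the remaining members, Slc38a10 had 118, 93.0 and 116 CPM in controls and 138, 122 and 94.8 CPM with overexpression, and Slc38a6 had 32.4, 21.3 and 18.4 against 33.2, 31.9 and 36.4 CPM. Both overlapped between the groups and missed the threshold (adjusted p = 0.76 and 0.23).

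**Figure D3:**
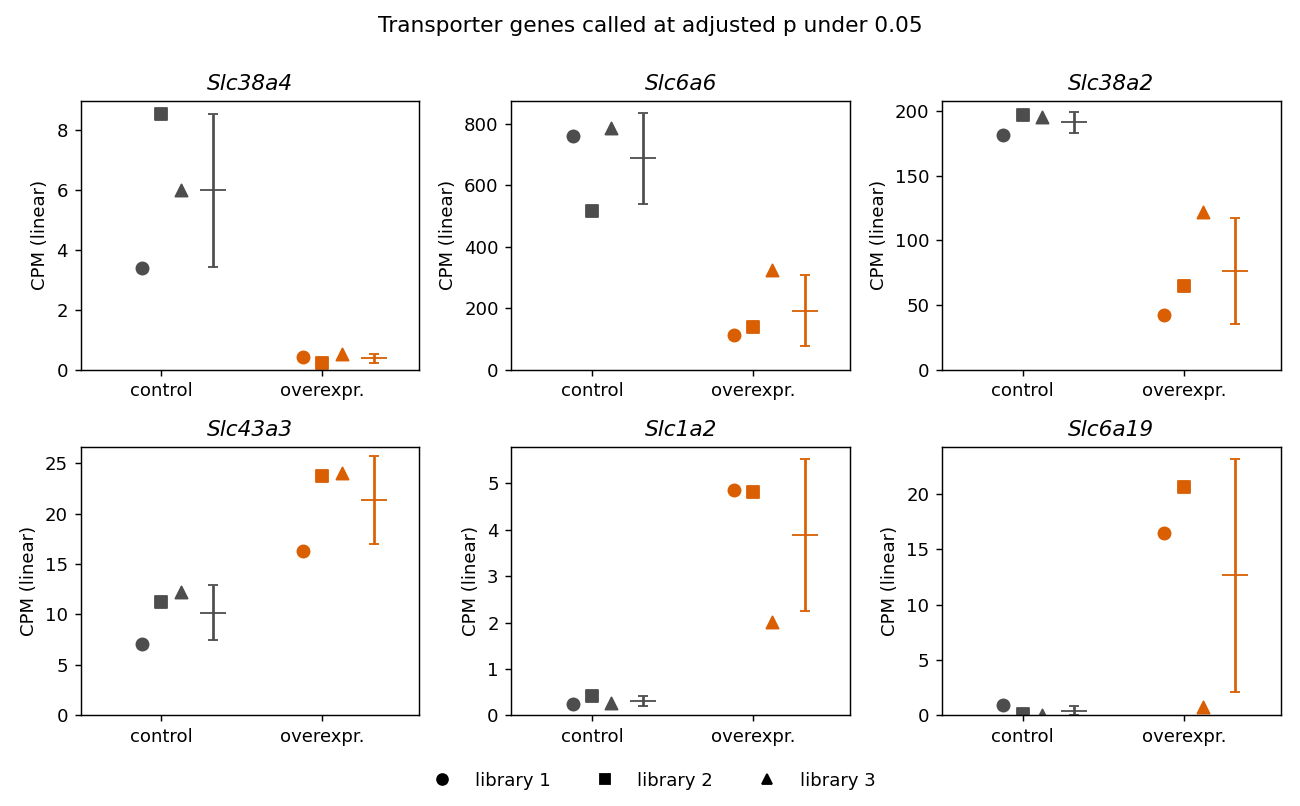
CPM (linear vertical axes from 0) of the 6 called members in each library, with circle, square and triangle for libraries 1, 2 and 3 and bars for the group mean ± SD (cut at 0, n = 3). The groups are separate in 5 panels, and in Slc6a19 overexpression 3 sits at 0.767 CPM, below control 1.

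Of the 5 Slc1 carriers of glutamate and aspartate, which clear glutamate around neurons, 1 was tested. Slc1a2 (ENSMUSG00000005089, chromosome 2, positions 102658659 to 102790784, + strand), the main glutamate carrier of astrocytes, had 0.236, 0.426 and 0.273 CPM in controls and 4.86, 4.82 and 2.01 CPM with overexpression. Every overexpression library lay several fold above every control, at levels that remained low per length, 0.0237 ± 0.00767 against 0.297 ± 0.124 CPM per kilobase (SD, n = 3). Slc1a2 rose by 3.62 ± 0.56 on the log2 scale (SE, adjusted p = 0.0036), a call that held when any 1 library was left out. The annotated antisense gene that overlaps its exons, Gm13872, had 0 counts in all 6 libraries. The other 4 of this group had at most 17 counts in any library, and Slc1a1 and Slc1a7 had none.

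The neutral exchangers of the same family were both tested and neither passed in the edgeR test, while limma-voom called Slc1a5 lower (adjusted p = 0.017). Slc1a5, the main glutamine exchanger of dividing cells, had 54.3, 53.7 and 64.2 CPM in controls and 38.04, 36.7 and 61.5 CPM with overexpression (a log2 difference of -0.34 ± 0.25, adjusted p = 0.41). Overexpression 1 and 2 lay below all controls, and overexpression 3 lay among them. Slc1a4, the related serine and alanine exchanger, had 1.18, 2.77 and 2.84 CPM against 0.479, 1.19 and 3.54 CPM (-0.37 ± 0.68, adjusted p = 0.77).

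The heavy chain gene Slc3a2, which encodes CD98, had 275, 266 and 232 CPM in controls and 422, 401 and 333 CPM with overexpression. The groups did not overlap, yet the log2 difference of 0.58 ± 0.22 did not pass (SE, adjusted p = 0.11), and it passed with DESeq2 (0.036) and limma-voom (0.0072). The other heavy chain gene, Slc3a1, had 0 counts in all libraries, which allows at most 3 counts, or 0.0279 CPM over the 6 libraries, for counting error only. Among 9 light chain genes of the rule 5 were tested and none passed, with 3 at an unadjusted p under 0.05. DESeq2 called 1 of them (Slc7a8) and limma-voom 3 (Slc7a5, Slc7a8 and Slc7a15).

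Estimates for the light chain genes lay on both sides of 0. Slc7a8, a large neutral amino acid exchanger, had 37.0, 29.4 and 20.6 CPM in controls and 39.5, 58.0 and 70.8 CPM with overexpression, without overlap (a log2 difference of 0.95 ± 0.29, adjusted p = 0.059). Its neighbour on chromosome 14, Slc7a7, which exports cationic amino acids, lay the other way without overlap. It had 28.8, 27.7 and 20.6 CPM against 14.6, 17.9 and 19 CPM (-0.58 ± 0.23, adjusted p = 0.12). Its exons overlap those of Oxa1l on the opposite strand, at 51.2 to 76.2 CPM, and the strand setting of the counting is not given in the sources used here. Slc7a6, a close relative of Slc7a7, had 21.8, 20.7 and 27.3 CPM against 16.01, 20.3 and 27.0 CPM (-0.14 ± 0.25, adjusted p = 0.75).

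Slc7a5, the leucine and tryptophan exchanger of activated cells, split the overexpression libraries. It had 11.3, 11.4 and 14.9 CPM in controls and 3.35, 5.55 and 21.7 CPM with overexpression, so that overexpression 1 and 2 lay below every control and overexpression 3 above every control. The difference over all libraries was -0.29 ± 0.59 (SE, adjusted p = 0.79), and without overexpression 3 it was -1.49 (adjusted p = 0.0076). Slc7a15, an aromatic amino acid carrier, was low throughout (0.237 ± 0.207 and 1.08 ± 0.109 CPM, adjusted p = 0.12).

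The cationic carrier group, named for members that bring in arginine and lysine without a heavy chain, had 3 of 4 genes tested and none that passed. DESeq2 called none either, and limma-voom called Slc7a1 and Slc7a4 lower. In the edgeR test 1 of the 3, Slc7a3, had an unadjusted p under 0.05, with an estimate above 0. Slc7a1, the widely expressed arginine carrier, split them in the same way. It had 17.9, 18.7 and 26.3 CPM in controls and 5.75, 8.05 and 30.7 CPM in overexpression 1, 2 and 3 (log2 difference -0.50 ± 0.55, adjusted p = 0.61), and -1.60 without overexpression 3 (adjusted p = 0.0031). Slc7a3 had 0.704 ± 0.565 and 2.59 ± 2.11 CPM, highest at 5.02 CPM in overexpression 3, and Slc7a4 had 3.71 ± 0.717 and 2.29 ± 0.744 CPM (adjusted p = 0.14 and 0.29). The 2 family members left out by the rule, Slc7a2 and Slc7a11, changed more than any tested Slc7 member (log2 changes 3.387 and 2.505). Both changed less than Slc6a19, Slc38a4 and Slc1a2. The arginine carrier gene Slc7a2 had 45.9 to 68.7 CPM in controls and 453 to 666 CPM with overexpression, and Slc7a11, the cystine exchanger that pairs with Slc3a2, 35.8 to 41.8 and 187 to 266 CPM (adjusted p = 2.0e-04 and 2.4e-04).

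Of the proton-coupled Slc36 carriers 3 of 4 were tested and none passed, with 1 at an unadjusted p under 0.05. DESeq2 called Slc36a2 higher, and limma-voom called Slc36a4 lower. Slc36a1, which exports small neutral amino acids from lysosomes, had 92.2, 53.1 and 74.0 CPM in controls and 57.8, 55.9 and 98.3 CPM with overexpression (a log2 difference of -0.05 ± 0.29, adjusted p = 0.93). Slc36a4, a high-affinity proline and tryptophan carrier, had 96.5, 105 and 113 CPM against 43.4, 67.0 and 111 CPM (-0.50 ± 0.31, adjusted p = 0.33), and the difference was -0.92 without overexpression 3 (adjusted p = 0.020). Slc36a2, a glycine and proline carrier, had 4.68, 6.87 and 4.42 CPM in controls and 9.44, 7.59 and 34.5 CPM with overexpression. All 3 lay above the controls, with overexpression 3 far above the others (1.69 ± 0.55, adjusted p = 0.077).

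Of the 3 Slc43 genes, facilitators related to the large neutral amino acid carrier LAT3, 2 were tested and 1 rose. Slc43a3 (ENSMUSG00000027074, chromosome 2, positions 84936579 to 84958509, + strand), now known to carry purine bases rather than amino acids, had 7.08, 11.23 and 12.2 CPM in controls and 16.3, 23.7 and 24.0 CPM with overexpression. The groups did not overlap, and Slc43a3 rose by a log2 change of 1.07 ± 0.28 (SE, adjusted p = 0.035). Scaling by library size alone ended the call (adjusted p = 0.092), and so did leaving out control 1, 2 or 3 or overexpression 2 (0.093, 0.10, 0.067 and 0.14). Slc43a2, a branched-chain amino acid carrier, had 185, 106 and 103 CPM against 79.7, 91.7 and 103 CPM (-0.52 ± 0.26, adjusted p = 0.23). Slc7a6os, the gene that is no transporter, had 13.6, 12.4 and 14.7 CPM against 19.2, 13.99 and 14.8 CPM (adjusted p = 0.54).

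**Figure D4:**
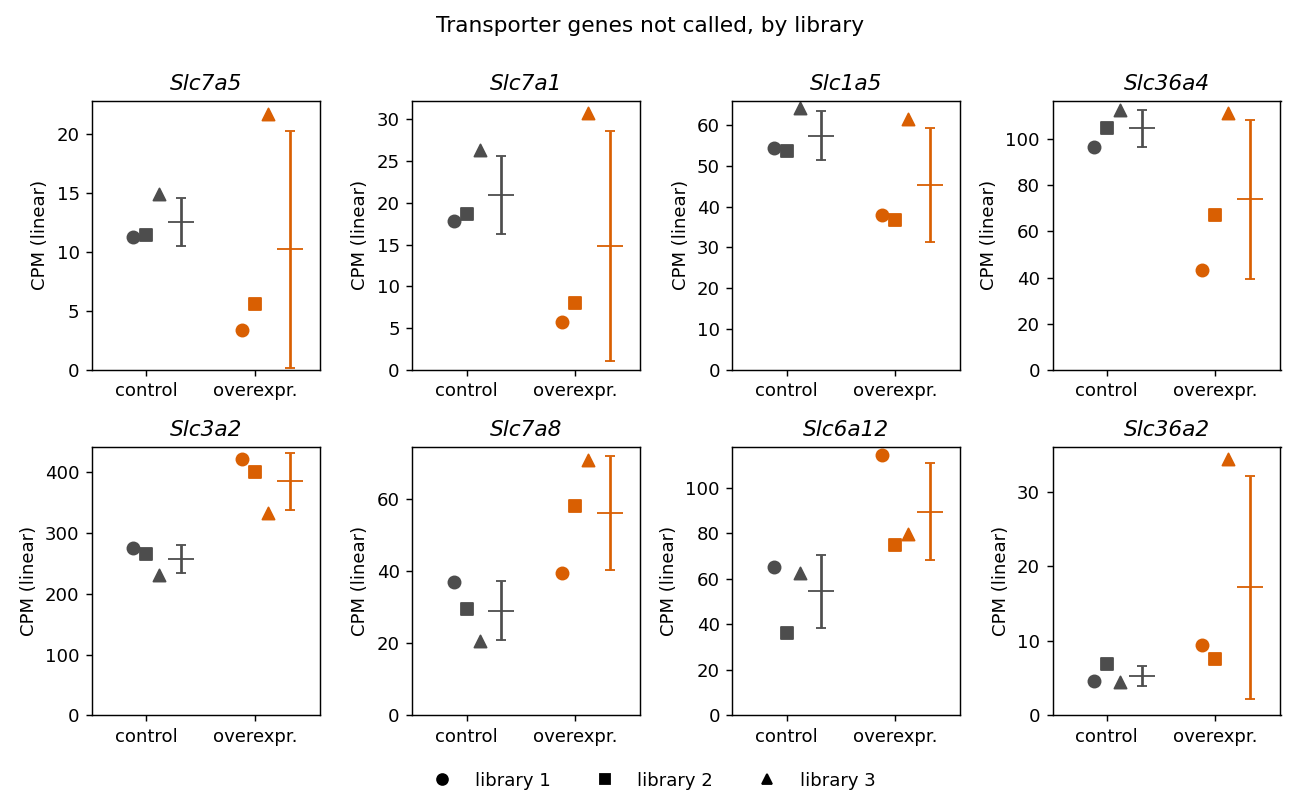
CPM (linear vertical axes from 0) by library for 8 members that were not called, with symbols and mean ± SD as for the called members (n = 3). In Slc7a5 and Slc7a1, overexpression 1 and 2 lie below every control and overexpression 3 above, while in Slc3a2, Slc7a8, Slc6a12 and Slc36a2 all overexpression libraries lie above the controls.

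Overexpression 3 thus differed from overexpression 1 and 2 across the families. It was the highest overexpression library in 25 of the 32 tested members (78.1%, against 40.6% of all tested genes). In 8 members (25.0%, against 8.60%) overexpression 1 and 2 lay below the controls and overexpression 3 within their range, namely Slc1a5, Slc36a4, Slc38a1, Slc38a7, Slc38a9, Slc43a2, Slc7a4 and Slc7a6. In Slc7a1 and Slc7a5 (6.25%, against 2.79%) it lay above the controls instead. It was the highest of the 6 libraries, with at least 1 of the other overexpression libraries inside the range of the controls, in Slc1a4, Slc36a1, Slc38a6, Slc6a9 and Slc7a3 (15.6%, against 9.37%), and in Slc38a10 and Slc6a19 it fell short of the other overexpression libraries, which lay above the controls (6.25%, against 10.0%). It was the lowest overexpression library in 5 members (15.6%, against 36.9%). These shares describe 1 library and carry no test. Without overexpression 3, 4 of 33 tested members were higher (12.1%, against 11.8% of all genes) and 7 lower (21.2%, against 12.8%), with Slc36a4, Slc38a7, Slc7a1 and Slc7a5 joining Slc6a6, Slc38a2 and Slc38a4. With overexpression 3 alone against the controls, an alternative chosen after seeing the data in which it is assumed to vary like them, Slc36a2 alone passed (log2 change 2.70, adjusted p = 0.0060), with 1.78% of all genes higher and 0.593% lower. In that fit the log2 changes were 2.67 for Slc1a2, -3.47 for Slc38a4, -1.08 for Slc6a6, -0.64 for Slc38a2, 1.25 for Slc43a3 and 1.03 for Slc6a19.

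Genes that respond to amino acid shortage through Atf4, the transcription factor whose translation rises when the kinase Gcn2 senses uncharged tRNA, were followed beside the carriers. Of 27 tested genes of this response 7 rose (25.9%, against 6.90% of all tested genes), and the other 20 did not pass (median log2 change 0.46, against -0.01 over all tested genes). The list was chosen with earlier results of these data known, so its share is a description and not independent support. The mTORC1 inhibitor gene Ddit4 rose from 8.31, 11.18 and 11.5 CPM to 65.7, 62.9 and 75.0 CPM (adjusted p = 2.0e-04), and the stress regulator gene Nupr1 from 12.04, 17.4 and 14.4 to 91.3, 69.9 and 90.7 CPM (adjusted p = 2.9e-04). Ddit4 and Nupr1 also answer to other stresses. Atf4 itself had 211, 274 and 242 CPM in controls and 273, 283 and 333 CPM with overexpression (adjusted p = 0.42).

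Overexpression 3 was the highest overexpression library in 19 of these 27 genes (70.4%, against 40.6% of all tested genes) and the highest of all 6 libraries in 13 (48.1%, against 15.4%). In 0 of the 27 did overexpression 1 and 2 lie below every control and overexpression 3 above, the pattern of Slc7a5 and Slc7a1. That pattern was in 2.79% of all tested genes, so a count of 0 does not set these 27 apart. Examples with overexpression 3 highest, chosen after their values were seen, are Asns, Aldh1l2, Cth and Trib3. Asns, which makes asparagine, had 19.7, 38.7 and 32.3 CPM in controls and 20.9, 23.6 and 53.2 CPM in overexpression 1, 2 and 3 (adjusted p = 0.88). The mitochondrial folate enzyme gene Aldh1l2 had 1.84, 2.50 and 4.36 CPM against 2.12, 7.42 and 24.1 CPM, and the cysteine-making enzyme gene Cth 0.472, 2.24 and 1.85 against 1.16, 4.08 and 12.5 CPM. Trib3, which encodes a feedback inhibitor of Atf4, had 8.22, 14.3 and 11.1 against 15.0, 19.2 and 39.8 CPM. None of the 4 passed over all libraries, and their part in the carrier values was not tested. Ddit3, a gene of the same list that rose, had overexpression 3 lowest of the overexpression libraries. It had 18.5, 22.2 and 21.9 CPM in controls and 91.9, 63.6 and 47.45 CPM in overexpression 1, 2 and 3 (adjusted p = 0.0037). Without overexpression 3, 7 of the 27 rose (25.9%, against 11.8%) and 4 fell (14.8%, against 12.8%), the latter share near the background.

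Cytosolic aminoacyl-tRNA synthetase genes, whose enzymes charge tRNAs with the carried amino acids, showed 1 of 19 higher and 1 lower (median 0.02). Each share was 5.26%, against 6.90% higher and 5.97% lower among all tested genes. Wars, the tryptophan enzyme gene known to be induced by interferon gamma, rose from 71.9, 58.9 and 61.8 to 217, 196 and 98.6 CPM (adjusted p = 0.013), and the histidine enzyme gene Hars fell from 44.2, 44.1 and 43.7 to 31.1, 25.5 and 23.5 CPM (adjusted p = 0.042). In the mTORC1 amino acid sensing pathway 2 of 34 rose and 1 fell (5.88% and 2.94%), near or below those shares. Its median log2 change was -0.24, against -0.01 over all tested genes. The 35 listed genes found in the data summed to 1961, 2005 and 2020 CPM in controls. With overexpression they summed to 1730, 1661 and 1743 CPM. The shift of the list was not tested. The arginine sensor gene Castor1 rose from 7.60, 6.602 and 5.56 to 34.4, 22.8 and 14.5 CPM (adjusted p = 0.0064). Sesn3, of the leucine-sensing sestrin family, rose from 10.2, 7.83 and 14.2 to 19.5, 27.5 and 17.5 CPM (adjusted p = 0.050), and the Rag GTPase gene Rragd fell from 54.2, 60.4 and 61.5 to 20.4, 21.8 and 38.8 CPM (adjusted p = 0.024).

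Among other amino acid and peptide carriers, 3 of 19 tested genes were higher and 4 lower (15.8% and 21.1%, median 0.03). Over all tested genes the shares were 6.90% and 5.97%. The list, chosen with earlier results of these data known, includes Slc7a2 and Slc7a11, which the rule set aside. Both rose, so the share of higher genes rests mostly on them and is no sign of a rise across the list. Apart from those 2, the peptide carrier gene Slc15a2 alone rose, from 1.80, 2.24 and 2.13 to 5.61, 6.18 and 4.13 CPM (adjusted p = 0.029). Sfxn2, of the mitochondrial sideroflexin family, fell from 8.12, 7.45 and 7.53 to 1.98, 1.64 and 2.89 CPM (adjusted p = 0.0074), and Slc25a44, which takes branched-chain amino acids into mitochondria, from 87.4, 66.8 and 77.8 to 21.8, 31.7 and 40.4 CPM (adjusted p = 0.010). The groups did not overlap in any of these 3 genes. Of 32 amino acid enzymes 4 rose and 1 fell (12.5% and 3.12%, against 6.90% and 5.97% of all tested genes, median -0.03). They were led by Ass1, which rebuilds arginine from citrulline. Ass1 rose from 14.7, 7.13 and 6.22 to 140, 127 and 96.6 CPM (adjusted p = 3.6e-04). Nos2, which makes nitric oxide from arginine, rose from 3.40, 0.692 and 0.109 to 2647, 3772 and 406.5 CPM (adjusted p = 0.0026). The glutamate dehydrogenase gene Glud1 fell from 205, 220 and 186 to 95.3, 117 and 129 CPM (adjusted p = 0.026).

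The 30 members that were not tested had few or no counts. Of these, 16 had 0 counts in every library, among them the heavy chain Slc3a1 and its kidney partner Slc7a9, the epithelial carriers Slc6a14 and Slc6a18, and the dopamine and proline carriers Slc6a3 and Slc6a7. The highest count of any untested member in 1 library was 18, in Slc43a1. Slc6a20a and Slc6a20b, near-identical copies between which reads can be shared, had 2 and 3 counts in all. Slc1a6, a glutamate carrier known from cerebellum, had 26 counts, all in the controls, and was called lower when low counts were kept.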

How the data were processed

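Raw counts of reads per gene in 6 libraries were deposited by the authors. Featured in the submitters' processing notes are build mm10, featureCounts 1.5.0-p3 and DESeq2 1.20.0, and a stranded mRNA kit was used per the labels' protocols. For the aligner, annotation release and strand setting, the entry is "not given in the sources used here". Of 54532 gene identifiers, 54495 had an entry in GENCODE mouse release 21 (mm10). The groups were compared by the quasi-likelihood test of edgeR 4.0.16 (R 4.3.3) with robust fits, TMM scaling and no covariate, on 13454 genes kept by its default filter. Benjamini-Hochberg adjustment ran over all of them, with a threshold of 0.05. A standard error is the size of the log2 change over the root of F. The fit was tested on simulated data.

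Counts of same-group libraries differed beyond what sampling gives (chi-square per degree of freedom at least 37.1) and correlated at 0.931 to 0.978 in log2 CPM (prior count 2). Total counts of 16461277 to 18795575 set the counting precision. Members called, or with a group mean of at least 20 CPM, are given by library, and each pathway list by up to 2 risen and 2 fallen genes of smallest p with others named after their values were seen. Members, lists and tests were chosen with earlier results of these data known. Alternatives were other scalings, DESeq2 1.42.0, limma-voom 3.58.1 with library quality weights, other filters, the replicate number as a block and left-out libraries. Leaving out 2 libraries at once was added after seeing the data.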

Additional observations from a re-analysis of the deposited data

How the results depend on the processing

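The count of transporter genes higher, 3, became 7 under DESeq2, 9 under limma-voom and 6 with low counts kept (46 members tested), and that of genes lower, also 3, became 11 under limma-voom. Leaving out 1 library at a time gave 1 to 4 higher and 1 to 7 lower. Leaving out control 1 with overexpression 3 gave 6 and 8, and leaving out overexpression 1 with 2 gave 1 and 0, pairs chosen after seeing the data. Over all genes, 928 were higher and 803 lower. Limma-voom gave 2442 and 2661, keeping low counts 1457 and 1460, and DESeq2 1207 lower. Leaving out 1 library gave 454 to 1657 higher and 250 to 1800 lower, and the pairs gave 1922 and 2022, and 261 and 87. The cause of these shifts was not tested. The 6 member calls were shared by RLE scaling, DESeq2, limma-voom, both other filters and the replicate block. Library size as the only scaling kept 5, with 648 genes higher and 910 lower overall and a median log2 change over all genes of -0.20 in place of -0.01.

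Of 478 single-gene values under the alternatives, 22 turned sign, none of a called member and none to a called value. Scaling by library size turned Slc38a10 to -0.10 and Slc6a9 to -0.066, and limma-voom turned Slc6a9 to -0.38. Over all settings with 1 or 2 libraries left out, log2 changes ran from -1.71 to 0.66 for Slc1a4, -0.65 to 0.11 for Slc1a5, -0.36 to 0.44 for Slc36a1, -0.97 to 0.098 for Slc36a4, -0.19 to 0.33 for Slc38a10, -0.99 to 1.07 for Slc6a9, -1.69 to 0.56 for Slc7a1, -1.55 to 0.80 for Slc7a5 and -0.39 to 0.22 for Slc7a6.

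Both labels use the same replicate numbers. Same-numbered libraries had correlations of deviations of 0.094, 0.0053 and 0.33, and differently numbered ones -0.232 to 0.19. With 3 libraries per label, these values cannot tell whether same-numbered libraries were handled together. With the replicate number as a block 3 transporter genes were higher and 3 lower, 957 and 945 over all genes, and Slc6a9 turned to -0.34. With longest transcripts in place of merged exons, 13 members in place of 11 reached 10 CPM per kilobase. Members with few counts, such as Slc7a15 and Slc6a17, are limited by depth.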
